A study of Mus musculus with 39 samples.

Results

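Major urinary proteins (Mups) are small secreted proteins of the lipocalin fold, made in the mouse liver, carried in blood to the kidney and passed into urine, where they bind and slowly release pheromones. Their genes lie side by side as a cluster of near-identical copies. Liver transcription of the cluster is known to follow the pattern of growth hormone release through STAT5, with further input from androgens, glucocorticoids and thyroid hormone, and it is a textbook trait of mature hepatocytes. Mup20, also called darcin, is a more divergent copy whose protein is a male pheromone. The 5 symbols Mup2, Mup13, Mup14, Mup19 and Mup20 are described here, out of 10061 symbols in the deposited table. They were taken by name, with their levels in these same cells already known, so their height in any group of cells is a description with no test.

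The study profiled 39 single cells from adult mouse liver by RNA sequencing. The mice were Krt19CreERT/Rosa26CAG-EGFP: an inducible Cre recombinase driven by Krt19, a keratin of bile duct epithelium, turned on a green reporter, so that a green cell either had Krt19-driven Cre or descends from a cell that did. Green cells were sorted and picked individually. All cells form 1 labelled group, and the number, sex and age in weeks of the mice and the Cre induction are not given in the sources used here. The driver marks any cell with Krt19 promoter activity at induction, not bile duct cells alone. With 1 group and no named animal there is no replicate error, and cells are compared by their values and ranges only.

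The values are called CPM here, a unit inferred from the file; they summed to between 351255 and 3128332 per cell, so they carry a scale factor for each cell. A median of 2985 symbols per cell reached 1 CPM (range 1866 to 5298). By the commonest low value, taken as the worth of 1 read, 1 CPM stood for a median of 12.0 reads in 37 cells (range 3.67 to 41.5), while in cells 38 and 39 no such value could be read, so no depth is given for them. The cells were grouped on 108 cell type markers, none of them a Mup. In this grouping 6 cells (numbers 1, 2, 3, 4, 38 and 39) were hepatocyte-like, with 28 to 32 of 34 measured hepatocyte markers at or above 100 CPM in each. Group 2, of 22 cells, is called cholangiocyte-like as a group and was led by Spp1, Tm4sf4, Clu and Krt18. It was mixed: Krt19 reached 100 CPM in 11 of the 22 and Alb in 13, and some cells had more hepatocyte than cholangiocyte markers at 100 CPM. Group 3, of 7 cells, was led by fibroblast genes such as Dcn and Col1a2 together with mesothelial markers such as Nkain4 and Lrrn4, group 4 held 4 cells, and both stay unnamed. In the 6 hepatocyte-like cells Krt19 was listed at 0, as were Krt7, Krt23 and Epcam, and 1 to 3 of 21 cholangiocyte markers reached 100 CPM.

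How alike the members are at the sequence level bears on every value below, because reads from a shared stretch cannot be told apart. Coding exon 2 of each member is shown for that reason, from the GENCODE M21 transcript matched by accession, on GRCm38, with capitals marking bases that differ from the majority of the 5.
Mup2: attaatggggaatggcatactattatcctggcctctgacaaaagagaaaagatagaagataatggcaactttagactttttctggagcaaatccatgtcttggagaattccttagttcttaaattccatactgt
Mup13: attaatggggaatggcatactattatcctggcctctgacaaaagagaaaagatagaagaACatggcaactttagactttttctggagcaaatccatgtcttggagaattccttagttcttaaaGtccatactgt
Mup14: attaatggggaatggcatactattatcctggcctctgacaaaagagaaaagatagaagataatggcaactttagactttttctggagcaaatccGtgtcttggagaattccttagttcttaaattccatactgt
Mup19: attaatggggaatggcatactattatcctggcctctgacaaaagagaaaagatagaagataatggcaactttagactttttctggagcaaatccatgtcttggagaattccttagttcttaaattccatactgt
Mup20: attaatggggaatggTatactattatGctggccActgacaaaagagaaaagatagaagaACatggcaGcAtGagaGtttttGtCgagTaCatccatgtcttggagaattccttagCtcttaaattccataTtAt
Mup2 and Mup19 were letter for letter the same over these 134 bases. Among Mup2, Mup13, Mup14 and Mup19 only 4 positions differed, against 18 once Mup20 was added. Over the first 5 coding exons those 4 members were 98.5% to 99.4% identical to each other, while Mup20 was 90.4% to 90.8% identical to them.

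The table held 22 Mup symbols in 25 transcript rows, the 5 members and 17 others, one of which, LOC100048884, carries the symbol Mup18 in RefSeq by its accession. For 21 symbols a transcript was matched, and each transcript was divided into all its 50-base stretches. None of the 50-base stretches of Mup19 was absent from all other Mup transcripts (0%). The share found in no other Mup was 2.40% for Mup14, 7.59% for Mup13 and 8.16% for Mup2. For Mup20 it was 95.3%, so a 50-base stretch of Mup20 can be told from other Mups almost anywhere along it. Over the whole cluster, 15 symbols had 0% to 21.9% of such stretches and 6 (Mup3, Mup4, Mup5, Mup6, Mup20 and Mup21) had 80.9% to 99.8%, with none between. These 2 classes were set after the values were seen. The stretch length was a choice made here. With 100-base stretches the share was 0% for Mup19, 8.60% for Mup14, 20.3% for Mup13, 13.5% for Mup2 and 100% for Mup20. The split of reads among the 15 near-identical symbols is therefore uncertain, and sums over the family are given beside each symbol.

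**Figure D1:**
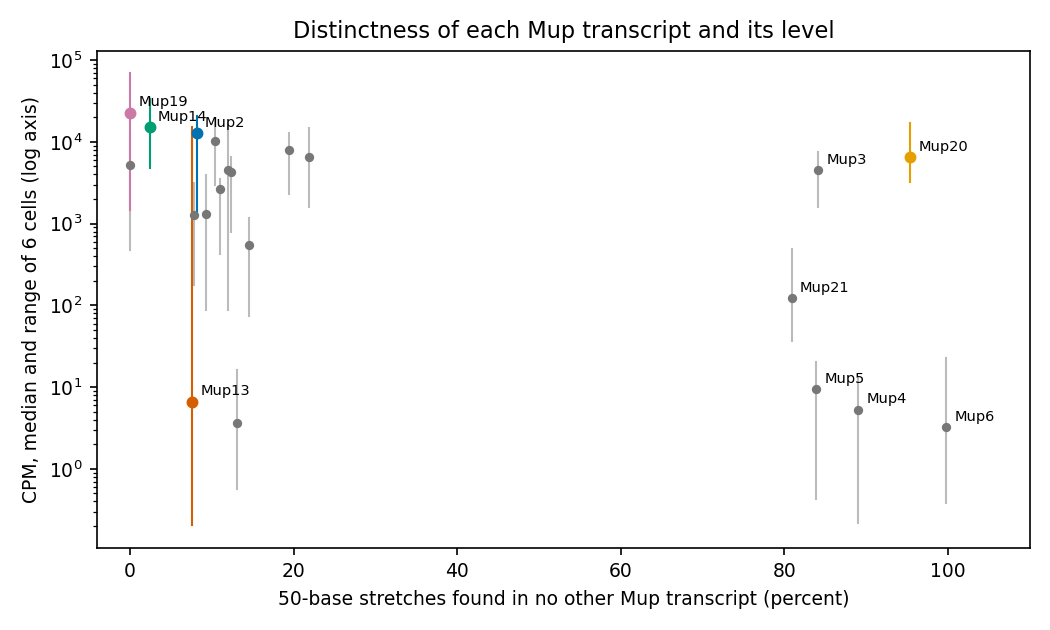
Each point is 1 of 21 Mup symbols. The x axis is the percent of 50-base stretches of its transcript found in no other Mup transcript; the y axis is its CPM on a log axis, with the point at the median and the line over the range of the 6 hepatocyte-like cells. Mup19, Mup14, Mup2 and Mup13 sit at 0% to 8.16% and Mup20 at 95.3%, and the line of Mup13 is the longest of the 21.

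The family was abundant in the hepatocyte-like cells and at or near 0 in nearly all others. The sum of the 5 members was 113502 CPM in cell 1, 95750 in cell 2, 75195 in cell 3, 59468 in cell 4, 38292 in cell 38 and 10766 in cell 39. In the other 33 cells it was exactly 0 in 20 and reached 100 CPM in 1 (cell 11, 448 CPM), and the next highest was 0.872 CPM in cell 8. The lowest hepatocyte-like cell thus stood 24-fold above the highest other cell. The members were chosen with this contrast known, and the share of all symbols that set these cells apart in this way was not computed. The median of the 6 was 67332 CPM, and the sum was 3.06% to 14.2% of all the signal of its cell. With all 22 Mup symbols added, the sum was 200590, 172695, 139018, 126447, 80168 and 23704 CPM in the same order of cells, or 25.0%, 14.8%, 17.3%, 21.1%, 15.2% and 6.75% of the cell. By either sum cell 1 was highest and cell 39 lowest, while cell 39 also had the lowest summed signal over all genes (351255 CPM).

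**Figure D2:**
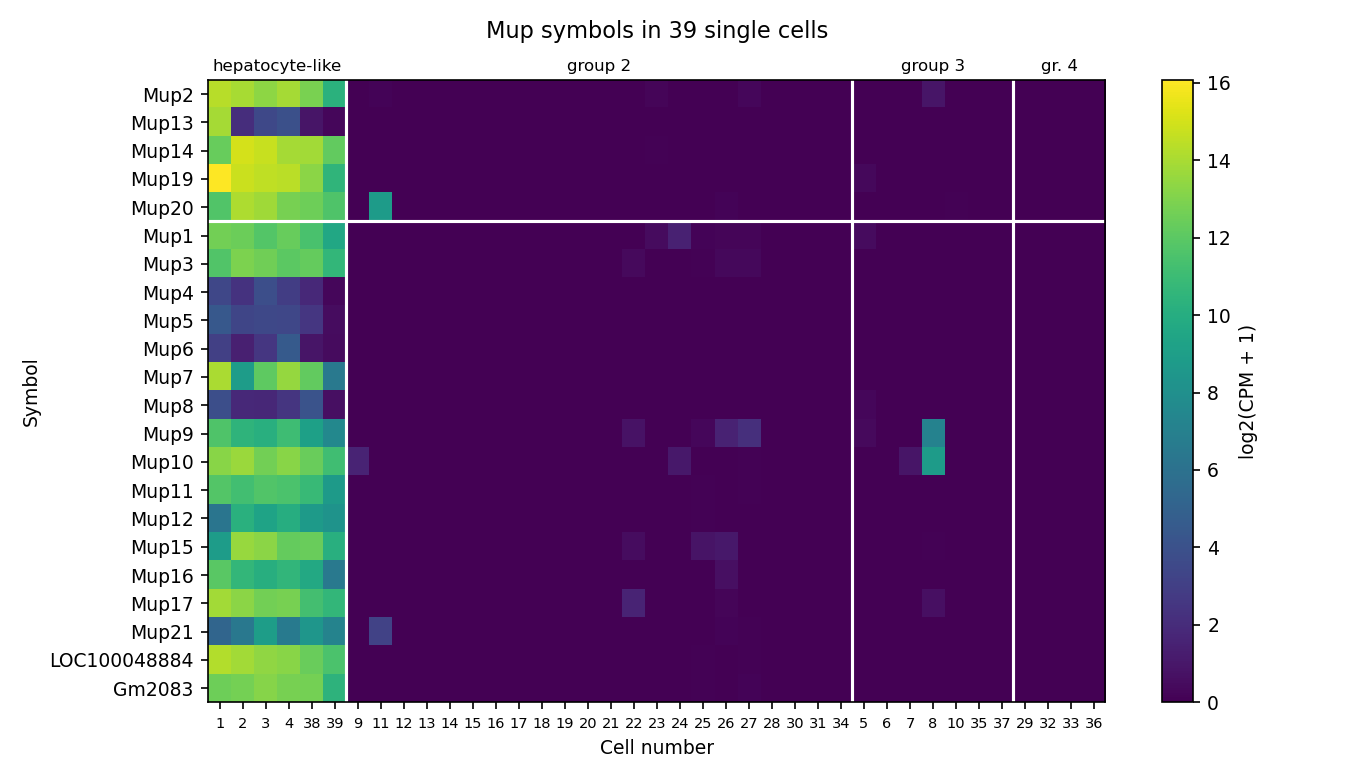
Rows are the 22 Mup symbols, the 5 members on top, and columns the 39 cells by group; color is log2(CPM + 1). The 6 hepatocyte-like columns are filled for nearly all symbols, and outside them Mup20 in cell 11 and Mup10 and Mup9 in cell 8 are the 3 values at or above 100 CPM.

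Mup19, whose transcript has no stretch of its own, had the highest median of the members. It was at 68965 CPM in cell 1, 28839 in cell 2, 23712 in cell 3, 22025 in cell 4, 10047 in cell 38 and 1469 in cell 39. Cell 1 stood above the rest and cell 39 below them, a 46.9-fold range. Its share of the 5-member sum had a median of 30.8% (range 13.6% to 60.8%), and its level in the highest of the other 33 cells was 0.289 CPM.

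Mup14 was at 5081 CPM in cell 1, 33616 in cell 2, 26723 in cell 3, 15131 in cell 4, 14973 in cell 38 and 4819 in cell 39. Cell 1, the highest for Mup19, was here beside the lowest, so the ratio of Mup19 to Mup14 was 13.6 in cell 1 and 0.305 to 1.46 in the other hepatocyte-like cells. Outside them Mup14 was at most 0.0896 CPM.

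Mup2 was summed from 3 transcript rows and came to 20872 CPM in cell 1, 16038 in cell 2, 10447 in cell 3, 15236 in cell 4, 7325 in cell 38 and 1245 in cell 39. Most of it was in 1 of the rows (19861 CPM in cell 1 and 1135 in cell 39). The values of the others lay within 7325 to 20872 CPM and cell 39 was apart and lower; the highest other cell was at 0.851 CPM.

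Mup20, the member whose reads are least shared, was at 3351 CPM in cell 1, 17255 in cell 2, 14302 in cell 3, 7063 in cell 4, 5947 in cell 38 and 3232 in cell 39. Its range was the narrowest of the members, 5.34-fold, against 6.98-fold for Mup14 and 16.8-fold for Mup2. Cell 1, highest in the family sum, was next to lowest for Mup20.

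Mup13 did not follow the others. It was at 15233 CPM in cell 1, 3.23 in cell 2, 10.1 in cell 3, 14.0 in cell 4, 0.874 in cell 38 and 0.204 in cell 39. It was high in 1 cell, between 3.23 and 14.0 CPM in 3 and under the detection level of 1 CPM in 2. Over the first 5 coding exons it differs from Mup2, Mup14 and Mup19 at 5 to 8 positions. The transcript matched to Mup13 has 7 coding exons and 705 coding bases, against 6 exons and 540 bases for Mup2, Mup14 and Mup19.

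**Figure D3:**
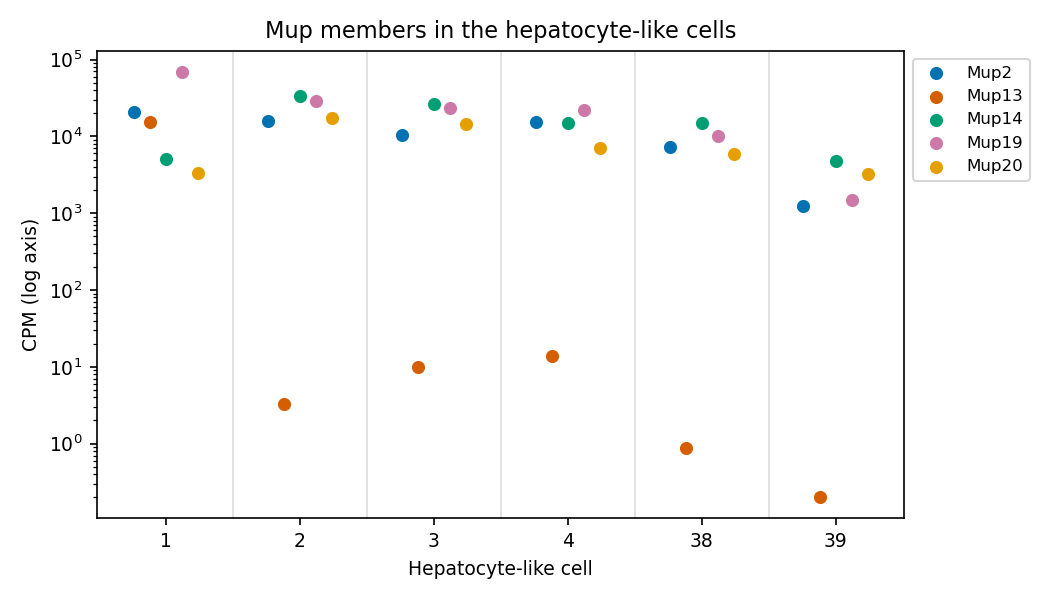
CPM on a log axis for each of the 5 members (colors) in each of the 6 hepatocyte-like cells (x axis). Mup13 is at 15233 CPM in cell 1 and at or under 14.0 CPM in the other 5 cells, where the other 4 members stay above 1000 CPM.

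Of the 5 members, 4 (Mup2, Mup14, Mup19 and Mup20) were at or above 100 CPM in every hepatocyte-like cell, and 1.87% of all symbols were. Mup2, Mup14 and Mup19 in addition reached 100 CPM in no other cell, as did 0.467% of symbols. By the mean of log2(CPM + 1) all 5 members were at least 16-fold higher in the hepatocyte-like cells than in the others, as were 4.34% of symbols, and 0 were 16-fold lower, against 1.07% of symbols. For Mup13 the log2 difference was 4.09 and rested on cell 1: without that cell, an alternative chosen after seeing the data, it was 2.13, and 4 of 5 members were 16-fold higher. The members were chosen with this contrast known, so these counts carry no test. Of all 22 Mup symbols, 13 were at or above 100 CPM in every hepatocyte-like cell, 10 of them in no other cell, and 18 were 16-fold higher. Mup4, Mup5, Mup6 and Mup8 stayed at or below 22.4 CPM everywhere; Mup4, Mup5 and Mup6 are among the distinct copies.

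Per kilobase of transcript, which allows levels to be set between genes, the mean of the 6 cells was 27878 CPM per kb for Mup19, 18080 for Mup14, 15585 for Mup2, 9186 for Mup20 and 2585 for Mup13, the last almost all from cell 1. Albumin (Alb), the main plasma protein, came to 13734 CPM per kb and Apoa1, an apolipoprotein of HDL particles, to 11988. The Mup2 value uses the length of its leading transcript. The per-cell ranges overlapped for Mup19, Mup14, Mup2, Alb and Apoa1, so their order is not fixed cell by cell. Of the 10 symbols with the highest mean CPM in the hepatocyte-like cells, 5 were Mups and 4 were members: in order Rorb, Alb, Mup19, Mup14, Apoa1, Mup2, LOC100048884, Gm20594, Serpina1e (an alpha-1-antitrypsin copy) and Mup20.

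The mix of symbols differed between the hepatocyte-like cells, and cell 1 stood furthest apart. Mup19 made up 34.4% of the 22-symbol sum in cell 1 and 6.20% to 17.4% in the other 5. Mup14 made up 2.53% against 12.0% to 20.3%, Mup20 1.67% against 5.59% to 13.6%, and Mup13 7.59% against at most 0.0111%. In cell 1, then, Mup19 and Mup13 took larger shares and Mup14 and Mup20 smaller ones than in any of the others. Mup2 did not follow either pattern, at 10.4% in cell 1 and 5.25% to 12.0% elsewhere. Taken over all 22 symbols, the share of signal that would have to be moved from symbol to symbol to turn 1 cell's mix into another's was 29.3% to 52.1% for the 5 pairs with cell 1 and 7.75% to 30.3% for the 10 pairs without it. Cells 2, 3 and 38, picked after their values were seen, were closest, at 7.75% to 13.6%. The 6 symbols with distinct transcripts, whose sum rests least on how shared reads were split, held 3.37% of the 22-symbol sum in cell 1 and 8.93% to 21.0% in the others. Among these, the ratio of Mup20 to Mup3, another divergent copy, was 1.01 in cell 1 and 1.23 to 2.30 in the other 5.

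**Figure D4:**
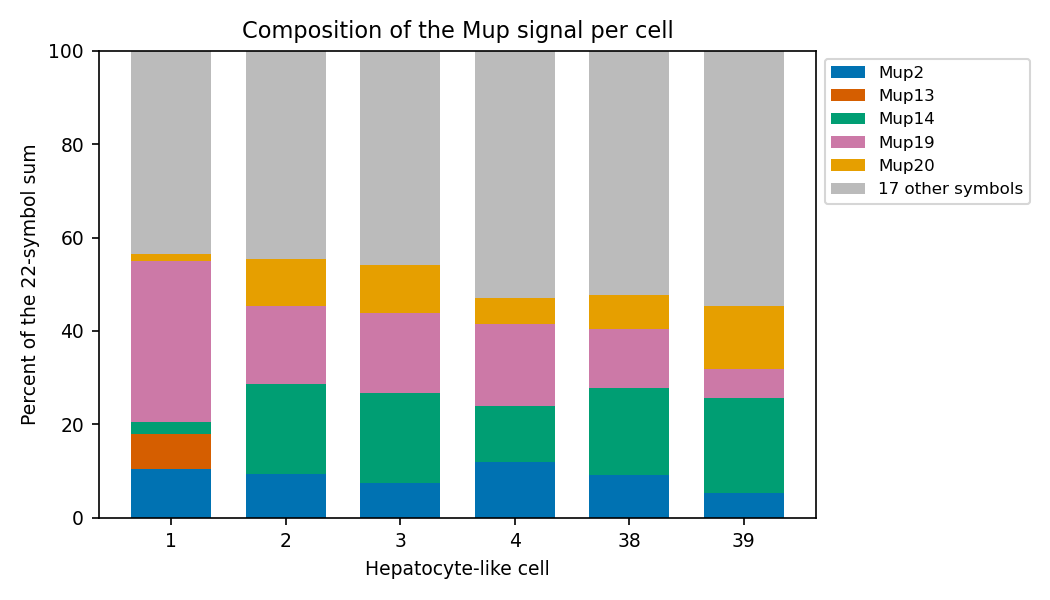
Each bar is a hepatocyte-like cell and shows the percent of its 22-symbol Mup sum held by each member (colors) and by the 17 other symbols together (grey). Mup19 fills 34.4% of the bar in cell 1 and at most 17.4% elsewhere, while Mup14 fills 2.53% in cell 1 and at least 12.0% elsewhere.

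Outside the hepatocyte-like cells 9 of 33 cells had a 22-symbol sum at or above 1 CPM, and in 2 of them, cells 8 and 11, it reached 100 CPM. Cell 11, in the cholangiocyte-like group, had Mup20 at 448 CPM, worth about 6846 reads, together with Mup21 at 8.07 CPM, and the other 4 members summed to less than 1 CPM. In the same cell Alb and Apoa1 were listed at 0, Krt19 was at 271 CPM, 10 of 21 cholangiocyte markers reached 100 CPM and 2 of 34 hepatocyte markers did. Cell 8, in group 3, had Mup10 at 461 CPM and Mup9 at 140 CPM with all 5 members under 1 CPM. In it 14 of 14 mesothelial, 5 of 12 fibroblast and stellate and 1 of 34 hepatocyte markers reached 100 CPM, and Alb was listed at 0. In the hepatocyte-like cells Mup20 never came without Mup2, Mup14 and Mup19, in contrast to cell 11. Counting cells, 7 of 39 had the family sum at or above 100 CPM (exact Clopper-Pearson 95% interval 7.54% to 33.5%, which covers the choice of cells only), and 8 had the 22-symbol sum there. All 22 symbols were at 0 in 19 of the 33 other cells, among them all 4 cells of group 4.

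Albumin was a much wider signal than the Mups. It reached 100 CPM in 14 of the 33 other cells, with a median of 4035 CPM and up to 20694 CPM in those. In these 14 cells the sum of the 5 members was at most 0.248 CPM and was 0 in 9, and the 22-symbol sum was at most 4.66 CPM. Cell 31, in the cholangiocyte-like group, had the most hepatocyte markers at 100 CPM among the 33 other cells (13 of 34), with 5 of 21 cholangiocyte markers there. In it Alb was at 1695 CPM and all 22 Mup symbols were at 0. Of 22 abundant plasma protein genes, all 22 were at or above 100 CPM in every hepatocyte-like cell, and 5 of these (Apoa1, Apoa2, Apoc3, Fabp1 and Serpina1d) in no other cell. Most of the 22, among them Alb, Apoa1, Apoa2, Apoc3, Fabp1 and Trf, were also markers used to form the groups. Their height in these cells therefore follows in part from the grouping. Trf, the iron carrier transferrin, reached 100 CPM in 18 of the 33 others.

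**Figure D5:**
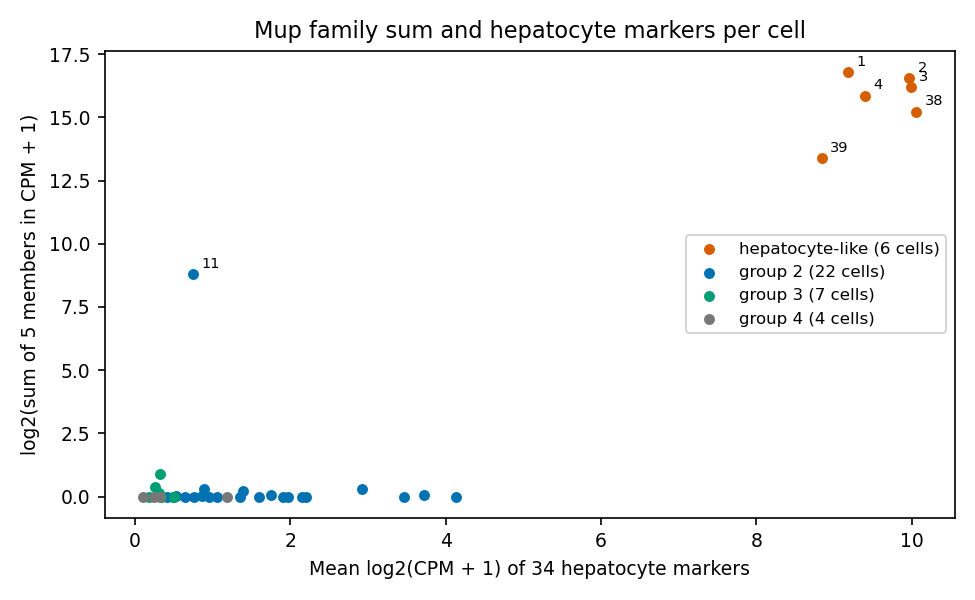
Each point is 1 of 39 cells. The x axis is its mean log2(CPM + 1) over 34 hepatocyte markers and the y axis the log2 of the 5-member sum plus 1 CPM; colors are the cell groups. The 6 hepatocyte-like cells lie at the upper right, cell 11 stands alone at 448 CPM, and cells with intermediate hepatocyte marker levels lie at the bottom.

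The genes outside the family that most resembled its sum across the 39 cells were Apoc3 (Pearson r = 0.970), an inhibitor of triglyceride clearance, Saa1, an acute-phase protein, Mat1a, the liver methionine adenosyltransferase, Fabp1, the liver fatty acid binding protein, Akr1c6, Hrg, Ugt2b36, Orm1, Cyp3a11 and Acaa1b (0.967). All 10 were at or above 100 CPM in every hepatocyte-like cell and at most 0.519 CPM in any other. Apoc3, Fabp1 and Cyp3a11 were also among the markers used to group the cells. The ranking mostly sets the hepatocyte-like cells, which share a cell type, against 33 cells of other groups, and the cells differ in depth. Of 9646 ranked genes, 96 had r at or above 0.9, and Spearman rho of the same 10 was 0.478 to 0.747. By rho 2 of the 10 were shared with the 10 highest, and without cell 1, an alternative chosen after seeing the data, 6 were. Mup20 itself had r = 0.995 with the sum, in which it takes part, Mup2, Mup14 and Mup19 had 0.967 to 0.970, and Mup13 0.651. In cell 11, which is not hepatocyte-like, Mup20 was 447.89 CPM of a sum of 447.986 CPM.

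Most known regulators of the family were low in the same cells. Of 20 listed growth hormone and hormone regulators 18 were measured, and 1, Igf1, the growth hormone-induced growth factor, was at or above 100 CPM in all 6 hepatocyte-like cells, at 148 to 1694 CPM (median 689). Ghr, the growth hormone receptor, was at 29.7 to 516 CPM (median 69.9), and Hnf4a, a hepatocyte transcription factor, at 2.19 to 593 CPM (median 88.4). Cells 1 and 2, the highest in the family sum, were also the highest in Ghr, a pairing picked after the values were seen. Igf1 was highest in cells 2 and 3 (1694 and 846 CPM) and Hnf4a in cells 38 and 39 (593 and 331 CPM). A link of any regulator to the Mup levels was not tested. Stat5b, the transcription factor that carries the growth hormone signal, was at 78.0 CPM in cell 38, 8.43 in cell 3 and under 1 CPM in the other 4. Of the 18, 4 were 16-fold higher and 0 were 16-fold lower in the hepatocyte-like cells, against 4.34% and 1.07% of all symbols.

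Among 18 listed male-biased liver genes, a class to which the Mups belong, 15 were measured and 4 were at or above 100 CPM in all 6 cells: Serpina1e (median 8572 CPM), Gstp1, a glutathione transferase (4064 CPM), Cyp2d9, a steroid hydroxylase (636 CPM), and Selenbp2 (556 CPM). Of the 15, 12 were 16-fold higher in the hepatocyte-like cells and 0 lower, against 4.34% and 1.07% of all symbols. Of 20 listed female-biased genes 2 were in the deposited table, Fmo2 and Abcd2, and both had a median of 0 in the hepatocyte-like cells. Listed genes missing from its 10061 symbols have no value here, and how symbols came to be kept in it was not examined. The 2 lists are therefore not set against each other. Xist, which is expressed from the inactive X chromosome, stayed at or below 1.48 CPM across the hepatocyte-like cells, with 10 of the 33 others at or above 100 CPM; Ddx3y, a Y-linked gene, was at 0 in cell 4 and up to 54.3 CPM in cell 3.

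Of the wider lipocalin family 9 of 15 listed genes were measured. Rbp4, the retinol carrier (median 3614 CPM), Ambp, the precursor of alpha-1-microglobulin (2059 CPM), and Orm1, an acute-phase glycoprotein (1241 CPM), were at or above 100 CPM in all 6 hepatocyte-like cells, and 6 of the 9 were 16-fold higher there and 0 lower. Orm1 reached 100 CPM in none of the other cells, Rbp4 in 4 and Ambp in 13. Ambp was also among the markers used to group the cells. Genes of both liver zones were among those higher in the 6 cells, while single cells differed. Over all symbols, 4.34% were 16-fold higher in the hepatocyte-like cells and 1.07% 16-fold lower. Of 15 periportal genes 12 were 16-fold higher and 1 (Cdh1) 16-fold lower, and of 12 measured pericentral genes 7 were higher and 0 lower. Periportal Pck1 had a median of 971 CPM, pericentral Cyp3a11 of 947 CPM and pericentral Cyp2e1 of 865 CPM. These 3 were also among the grouping markers. In cell 1, highest in the Mup sums, Cyp2e1 was at 3150 CPM, Cyp3a11 at 1363 and Pck1 at 631. In cell 39, the lowest, they were at 29.7, 181 and 1380 CPM. Periportal Pigr was alike in both cells, at 115 and 114 CPM. The 2 cells were picked after their values were seen, and a link of zone genes to the Mup levels was not tested.

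The hepatocyte-like cells also differed from the rest in immediate early genes, a class known to be induced during tissue dissociation. Of 18 listed, 14 were 16-fold lower in the hepatocyte-like cells and 0 higher, against 1.07% and 4.34% of all symbols. Junb had a median of 40.3 CPM against 2878 CPM in the other cells, and Jun 10.4 against 2855 CPM. Rn45s made up 0.383% to 1.22% of the signal of a hepatocyte-like cell and 8.42% to 31.2% of that of any other cell. Lars2 made up at most 0.00584% against 0.298% to 4.32%, and Rorb 1.10% to 12.5% against at most 0.0107%. Among markers of other cell types, 0 to 3 of 18 macrophage and granulocyte, 0 to 2 of 4 endothelial, and at most 1 each of 12 fibroblast and stellate, 14 mesothelial and 5 leukocyte markers reached 100 CPM in a hepatocyte-like cell. The part of these differences in the Mup levels was not tested.

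Stretches of 167 bases near the gene starts are shown for Mup2, Mup14 and Mup19, which had high values in the same 6 cells, as did Mup20. The Mup2 and Mup19 stretches lie before the listed start, while that of Mup14 runs past it. For the members Mup13 and Mup20 no promoter was matched and none is shown. The stretches come from the RefSeq promoter table of GRCm38.p6, on the minus strand, at chr4:60139867-60140033 for Mup2, chr4:61303970-61304136 for Mup14 and chr4:61782239-61782405 for Mup19. The notes name the build mm9 for the deposited values, so no position was carried over. Capitals mark the TATA box letters TATATAA, which in Mup14 lie after the listed start.
Mup2: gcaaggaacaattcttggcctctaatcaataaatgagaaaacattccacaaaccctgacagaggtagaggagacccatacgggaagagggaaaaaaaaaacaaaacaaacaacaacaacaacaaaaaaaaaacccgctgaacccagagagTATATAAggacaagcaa
Mup14: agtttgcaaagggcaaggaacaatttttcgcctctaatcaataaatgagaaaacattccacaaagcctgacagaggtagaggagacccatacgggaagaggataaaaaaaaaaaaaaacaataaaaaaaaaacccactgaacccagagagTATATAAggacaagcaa
Mup19: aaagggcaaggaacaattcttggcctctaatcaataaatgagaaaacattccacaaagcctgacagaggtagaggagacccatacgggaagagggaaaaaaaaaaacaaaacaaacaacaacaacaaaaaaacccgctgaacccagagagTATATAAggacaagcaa
The Mup2 and Mup19 stretches were 92.5% identical, those of Mup14 and Mup19 87.4%, and those of Mup2 and Mup14 82.1%. TATATAA, searched on both strands in 300 bases around the start, was in 13 of 14 Mup promoters in the table and in 3.24% of 32851 promoters. TTCNNNGAA, the core letters that STAT5 binds, searched the same way, was in 0 of 14 and in 8.30% of all. The window ends 250 bases before the start, and letters further away were not searched.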

How the data were processed

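Single green cells were sequenced one library each. Per the submitters' processing notes, Bowtie 0.12.9, eXpress 1.5.1 and the build mm9 were used by the authors, with settings and order not given in the sources used here. eXpress divides reads shared between transcripts by a model, which matters for near-identical copies. The deposited values are on a log2 scale: the lowest, -2.58 (0.167 linear), was taken as no reads and subtracted after raising 2 to each value, and the unit is called CPM by inference. The design had assumed a linear unit. Of the 13568 transcript rows, those with 1 symbol were summed.

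Cells were grouped by Ward linkage on log2(CPM + 1) of 108 markers, with 2 to 6 groups of at least 3 cells and the highest silhouette (0.386). Detection was 1 CPM. The members and lists were chosen with earlier results of these data known. Named are all Mup symbols, the 10 genes most like the family sum (Pearson r, detected in at least 4 cells), the 10 highest means and, from each list, at most 4 genes highest in the hepatocyte-like cells and 2 in the others. Alb, Krt19, Rn45s, Lars2 and Rorb were named where a result needed them. Serpina1d, Stat5b, the markers at 0 and cells 8, 11 and 31 were chosen after their values were seen, as were the groups' leading genes. No test between cells was made, no cell was removed and no doublet caller was run; the libraries carry no stated molecular identifiers, so reads are not separate molecules. No 2 of the 741 pairs of cells had identical values. The ranking and grouping were tested on simulated data. Python 3.11.15, numpy 2.4.6, pandas 2.3.3, scipy 1.17.1 and Biopython 1.88 were used.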

Additional observations from a re-analysis of the deposited data

Results flagged for a closer look

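In the 6 hepatocyte-like cells, 24 values (22 Mup symbols and the 2 sums) were checked for a cell whose gap to its nearest neighbor exceeded 0.625 of the whole range on the log2 scale. In independent sets chance flags about 1 in 20, and here 4 were found. The 24 sets are not independent: they share the same 6 cells, near-identical copies share reads, and the 2 sums contain the symbols. The 4 are therefore not set against that rate. Mup13 was far higher in cell 1, at 15233 CPM, with the gap at 0.733 of the range. Cell 39 was far lower for Gm2083 (1348 CPM, gap 0.771), Mup11 (424 CPM, gap 0.701) and Mup2 (1245 CPM, gap 0.629). The summed signal of cell 39 over all genes was the lowest of the 39 cells, at 351255 CPM, and its part in these values was not tested. Mup11, Mup2 and Mup13 are near-identical copies, and no transcript was matched to Gm2083.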

How the results depend on the processing

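Of 28 alternatives to the values reported, 26 moved none beyond the limit set for it. The limit was the spread between cells for levels and shares, and 1.5 times for counts of genes. Counts of cells were held to their exact Clopper-Pearson interval. That limit is wide, at 7.54% to 33.5% for the 7 of 39 cells with the family sum at or above 100 CPM. Under the alternatives this count was 6 to 8 cells. The values compared were levels, counts and shares, which have no direction, so a reversal could not be seen. Of the 10 genes most like the family sum, 2 were shared with the ranking by Spearman rho and 6 with that without cell 1, which was chosen after seeing the data; the cause was not tested. The median family sum of 67332 CPM ranged from 59468 CPM without cell 1 to 132732 CPM with all 22 Mup symbols, and was 87853 CPM with each cell rescaled to a total of 1000000. The median share of Mup19 in the 5-member sum was 30.8%, and in the 22-symbol sum 16.9%. The hepatocyte-like cells were the same 6 under each alternative that gave a value, or 5 without cell 1. Grouping on the 1000 most variable genes gave no value, because no number of groups left 3 cells in each. Depth limits low values: among the members, Mup13 in cells 2 to 4 stood for about 15.2 to 51.2 reads. No paired analysis was possible because the labels give 1 group and no pairing.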
